A study of Homo sapiens with 12 samples.

Results

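The EGR and KLF transcription factors examined were 9 genes: EGR1, EGR2, EGR3, KLF2, KLF4, KLF5, KLF6, KLF9 and KLF10. They were chosen by name, with earlier results of these data known. Their rows were taken from the normalized count tables of the PMA and the ConA experiment. Of the 9 genes, 8 were listed in each table, among 16101 genes in the PMA table and 15991 in the ConA table. EGR3 was not listed in either and has no value below. The cells were HT1080, an established human fibrosarcoma line, and poly(A) RNA was sequenced in 12 libraries. Their genotype is given as wild type, which does not describe the mutations of the tumor line itself. The PMA experiment held 3 libraries of cells treated with PMA (phorbol 12-myristate 13-acetate, an activator of protein kinase C) at 40 nM, and 3 untreated controls. The ConA experiment held 3 libraries of cells treated with the lectin ConA (concanavalin A, which binds mannose-rich glycans at the cell surface) at 40 µg/mL, and 3 untreated controls of its own. The cells of all 12 libraries grew in biotin-depleted medium with 10% serum. After 3 days they were moved to such medium with 1% serum, in which treatment lasted 24 h. The cell line is 1 tumor-derived line, and the libraries are not labelled as separate cultures, so the p-values below measure the spread between these libraries only.

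EGR and KLF proteins are zinc-finger factors that bind GC-rich DNA. EGR1, EGR2 and EGR3 are classic immediate early genes: growth factors, phorbol esters and stress act through ERK kinases on serum response factor (SRF) and its ELK partners, which sit on CArG boxes in the promoters, and the mRNA appears before any new protein is needed. EGR proteins switch on NAB2, which binds them and represses their activity. Among the KLF factors, KLF2 and KLF4 are known as flow-induced factors of blood vessels, KLF4 also as a pluripotency factor, KLF5 as a factor of proliferating epithelium, KLF6 as a widely expressed factor often lost in tumors, KLF9 as a glucocorticoid and thyroid hormone target, and KLF10 as a TGF-beta inducible early gene. The samples were taken at 24 h, long after the first wave of immediate early transcription, so these values are late levels.

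The promoters of EGR1, EGR2 and KLF4 are shown first, because EGR1 and EGR2 hold CArG boxes and the EGR1 and KLF4 transcripts differed most between the treatments. Each run is the 250 bases before an annotated start, from RefSeq on GRCh38.p14, written 5′ to 3′ on the strand of the gene. It lies upstream of the transcript that begins there. Capitals mark CArG boxes in the EGR genes and the KLF and SP box in KLF4. EGR1 lies at chr5:138465229-138465478 on the plus strand, EGR2 (1 of 3 annotated starts) at chr10:62816367-62816616 on the minus strand, and KLF4 at chr9:107489770-107490019 on the minus strand.
EGR1: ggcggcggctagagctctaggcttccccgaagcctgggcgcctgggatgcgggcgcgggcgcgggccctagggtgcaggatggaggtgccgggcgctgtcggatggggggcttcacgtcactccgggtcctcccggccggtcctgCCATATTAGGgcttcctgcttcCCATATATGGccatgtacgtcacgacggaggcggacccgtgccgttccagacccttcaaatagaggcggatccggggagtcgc
EGR2: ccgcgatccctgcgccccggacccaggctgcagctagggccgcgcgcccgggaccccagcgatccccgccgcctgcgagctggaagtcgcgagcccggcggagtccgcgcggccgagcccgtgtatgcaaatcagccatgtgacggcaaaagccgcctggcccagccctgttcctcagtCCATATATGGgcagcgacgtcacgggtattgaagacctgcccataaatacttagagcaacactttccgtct
KLF4: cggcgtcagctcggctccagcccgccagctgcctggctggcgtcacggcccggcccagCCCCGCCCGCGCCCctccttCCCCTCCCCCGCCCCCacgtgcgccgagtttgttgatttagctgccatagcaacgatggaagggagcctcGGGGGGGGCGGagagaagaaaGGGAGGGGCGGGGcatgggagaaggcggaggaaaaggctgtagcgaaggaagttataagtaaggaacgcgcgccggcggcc

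The EGR1 window held 2 CArG boxes, at -105 to -96 and at -83 to -74 from the start, and the EGR2 window held 1, at -71 to -62. The windows at the other two EGR2 starts held none. A CArG box was found in 407 of the 35116 promoter windows of this length (1.16%). None of the windows of KLF2, KLF4, KLF5, KLF6 or KLF9 held one. The KLF4 window held 10 overlapping matches to the KLF and SP box CCNCNCCC, which 53.4% of all windows hold, and 1 match to the EGR site GCGNGGGCG, which 8.41% hold and whose letters overlap the KLF and SP box. EGR1, KLF2 and KLF6 also held 1 EGR site each. No member window held the AP-1 site TGANTCA (6.57% of all windows) or the CRE TGACGTCA (1.65%), and the TATA box TATAAA (10.7%) was matched only in 1 KLF5 window, at -194 to -189. EGR3 and KLF10 had no window in the promoter set and were not searched. Both strands were searched. A match describes the letters and says nothing about whether a factor binds there.

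**Figure D1:**
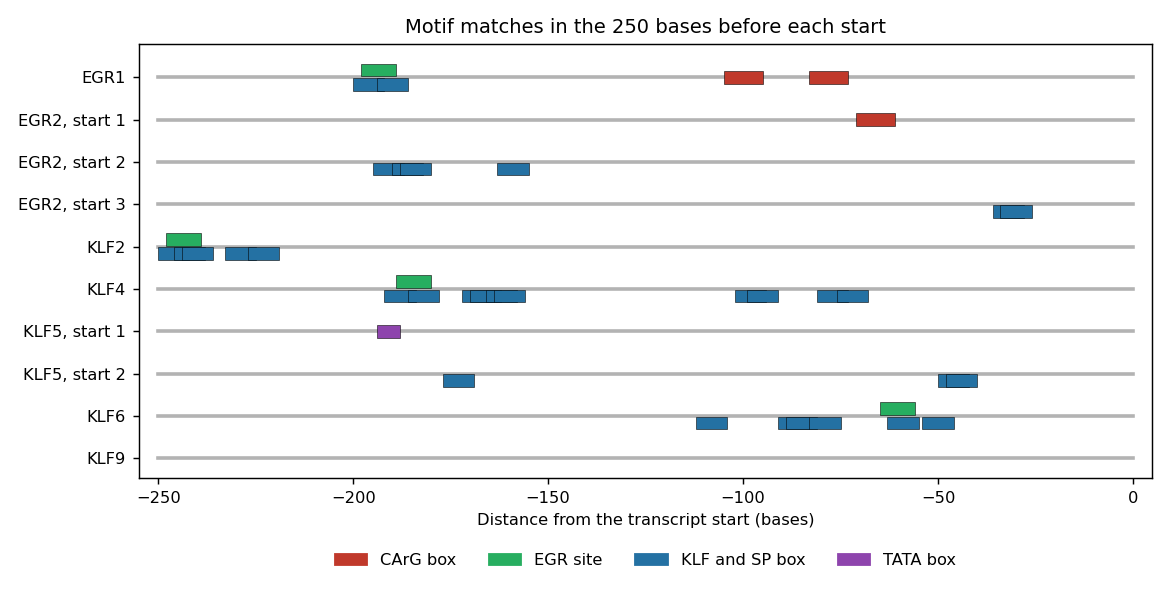
Motif matches in the 250 bases before each annotated start of the members with a RefSeq window; the horizontal axis is the distance from the start in bases, each grey line is 1 window and each colored block is 1 match on either strand. The CArG boxes of EGR1 lie at -105 to -96 and -83 to -74 and that of EGR2 at -71 to -62, the KLF4 line carries 10 KLF and SP boxes, and the KLF9 line is empty.

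Between 33616598 and 45567990 estimated reads per library (median 40947739) lie behind the normalized counts. These totals are approximate, since they rest on a factor per library under which 81.8% to 84.2% of low values became whole numbers. By the same factors, replicates differed by 3.53 to 16.4 times the variance that read sampling alone gives, so changes were judged by the spread between libraries. VIM and SPARC, markers of mesenchymal cells, averaged 195751 and 63219 normalized counts in the PMA controls and 138419 and 122718 in the ConA controls. With PMA, VIM was at 275216 and SPARC fell to 21957 (log2 fold change -1.53), and COL1A2 (-1.04) and PDGFRB (-1.66) were the others called lower of the 10 mesenchymal markers. With ConA none of 9 listed was called, and they moved both ways, with a median log2 fold change of 0.03. COL1A2 (0.92), CDH2 (0.47), COL6A2 (0.34) and COL6A1 (0.25) were higher, and SPARC was at 0.03. VIM at 79796 (-0.79), FN1 (-0.68), PDGFRB (-0.68) and COL1A1 (-0.66) were lower. The summed level was 401800 to 439200 against 522900 to 601600 in the controls. FN1, the largest part of that sum, went from 268826 to 166724. No erythroid marker was listed. Of 6 epithelial markers 2 were listed in the PMA table and 5 in the ConA table, with sums of 162 to 319 normalized counts per library, of 6 endothelial markers 4 were listed in each, with sums of 165 to 280.1, and of 8 myeloid markers 5 and 4 were listed. The myeloid sums were 5307 to 5774 in the PMA controls, 7549 to 7750 with PMA, 6175 to 6604 in the ConA controls and 17580 to 20790 with ConA. CD68, which makes up most of these sums, was called higher with ConA (from 5925 to 18897, log2 fold change 1.67), and CD14, AIF1 and TYROBP were not listed in either table. IL7R, which was by far the highest lymphocyte marker in treated cells, was called higher with both treatments, with PMA from 329 to 3021 (3.19) and with ConA from 441 to 5114 (3.54), and with it the lymphocyte sums were 1206 to 1332 and 4299 to 4793 in the PMA table and 427 to 559 and 4639 to 5454 in the ConA table. It is given apart from the rest for that reason. Of the other 11 lymphocyte markers, 9 were listed in the PMA table, with sums of 886 to 985 in the controls and 1199 to 1816 with PMA. The ConA table listed 2 of the 11, with sums of 34.1 to 52.0 in the controls and 39.5 to 48.1 with ConA. B cell markers MS4A1 and CD79A were not listed, and the part of any of these marker transcripts in the results below was not tested. In bulk RNA, fewer cells of a type and less RNA per cell cannot be told apart.

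EGR1, EGR2 and KLF5 rose with PMA and KLF4 fell. EGR1 rose most, about 12.4-fold, while EGR2 rose from a very low level. KLF2 fell with ConA, the only member called there, and by a change that lay on the fold threshold. A gene was called where limma gave a log2 fold change of 1 or more in size with an adjusted p no higher than 0.0001, fitted on log2(normalized count + 1), with Benjamini-Hochberg adjustment over all genes tested. With PMA 3 of 8 members tested were called higher and 1 lower, where 4.03% of all 15153 genes were called higher and 4.61% lower. With ConA 0 of 7 members tested were called higher and 1 lower, where 5.83% of all 15139 genes were called higher and 2.88% lower. At any fold change, 7 of 8 members had an adjusted p of at most 0.0001 with PMA (25.8% of all genes) and 6 of 7 with ConA (30.5%). The ranges of treated and of control libraries were apart for all 8 members with PMA and all 7 with ConA, which held for 67.9% and 69.3% of all genes. The median log2 fold change was 0.23 over the 8 members tested with PMA, of which 4 were above 0 and 4 below. With ConA it was 0.38 over the 7 members tested, of which 5 were above 0 and 2 below. EGR2 is in the first median only. Over all genes tested the medians were 0.0029 with PMA and -0.0022 with ConA.

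**Figure D2:**
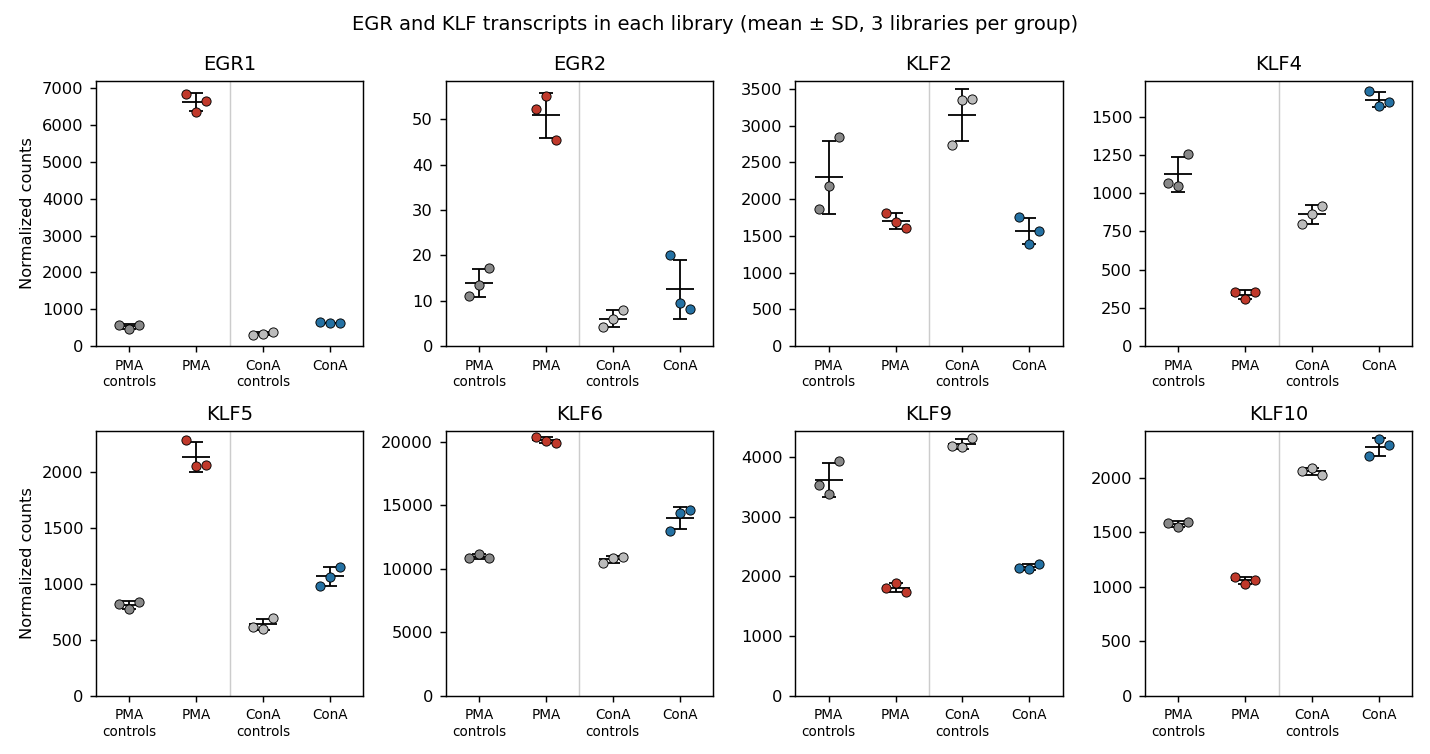
Normalized counts of each listed member in the 12 libraries, by group, on linear axes that start at 0; points are libraries, and bars give the mean ± SD of 3 libraries. EGR1 stood at 6356 to 6845 with PMA against 461 to 575 in its controls, KLF4 moved to lower values with PMA and to higher values with ConA, and the tables left and right of the grey line were scaled apart.

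EGR1 encodes the founding member of the family, induced by growth factors and phorbol esters. Its normalized counts were 575, 461 and 570 in the PMA controls and 6845, 6356 and 6655 with PMA. They were 301, 324 and 383 in the ConA controls and 640, 623 and 618 with ConA. All treated libraries lay above all of their controls in both experiments, by far more with PMA. EGR1 stood 3.63 higher on the log2 scale with PMA (SE 0.077, adjusted p = 1.35e-11 from limma), place 88 of 15153 genes by size. With ConA it was 0.91 (SE 0.093, adjusted p = 1.07e-06 from limma), under the fold threshold, and it reached 1.00 and a call when ConA control library 6, the highest of its controls, was left out. The change with PMA exceeded that with ConA by 2.73 (95% interval 2.47 to 2.99, adjusted p = 4.50e-12 from limma).

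EGR2, known for its part in myelination and in T cell unresponsiveness, was close to the lower limit of the tables. The PMA controls held 11.1, 13.4 and 17.2 normalized counts and the PMA libraries 52.2, 55.1 and 45.5. Every PMA library lay above every control, and the log2 fold change was 1.82 (SE 0.24, adjusted p = 5.34e-05 from limma). That call was lost when any single library other than PMA control 3 was left out (adjusted p = 0.000239 to 0.000644 from limma), although the change stayed between 1.68 and 1.90. The ConA controls held 4.17, 6.00 and 8.01 and the ConA libraries 20.03, 9.41 and 8.09. The ConA libraries lay above the controls, the lowest of them barely, and the gene was under the mean of 10 normalized counts needed for a test with ConA. The difference between the changes was 0.95, with a 95% interval of -0.10 to 2.00 (adjusted p = 0.108 from limma), so it could not be placed on either side of 0. The PMA table holds the lymphocyte transcripts given above, higher with PMA, and their part in the EGR2 values was not tested.

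KLF4 gave the larger changes of the 2 members, KLF4 and KLF10, whose values went opposite ways. In the PMA experiment it fell from 1069, 1049 and 1255 normalized counts in the controls to 354, 306 and 351. In the ConA experiment it stood at 799, 866 and 919.6 in the controls and 1667, 1572 and 1599 with ConA. All PMA libraries were below their controls and all ConA libraries above theirs. On the log2 scale the change of KLF4 was -1.73 with PMA (SE 0.084, adjusted p = 1.03e-08 from limma), a level 3.33-fold lower. With ConA it was 0.91 (SE 0.067, adjusted p = 4.08e-08 from limma), under the fold threshold. The difference of -2.64 (95% interval -2.87 to -2.40, adjusted p = 1.47e-12 from limma) passed both thresholds.

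KLF2, the closest relative of KLF4 among the vascular KLF factors, gave another pattern. Its normalized counts were 1864, 2171 and 2845 in the PMA controls and 1816, 1685 and 1608 with PMA. The lowest control and the highest PMA library were almost level, and control library 3 was far above the others. The log2 fold change with PMA was -0.41 (SE 0.12, adjusted p = 0.0106 from limma), not called, and it was -0.24 without control library 3. With ConA the counts were 1750.3, 1392 and 1561 against 2736, 3346 and 3356 in the controls, with no overlap. Its log2 fold change of -1.004 (SE 0.090, adjusted p = 2.68e-07 from limma) passed the thresholds narrowly and fell short of the fold threshold without ConA library 2 (-0.92), ConA control 5 (-0.96) or ConA control 6 (-0.95). The change with PMA lay above that with ConA by 0.60 (95% interval 0.24 to 0.95, adjusted p = 0.00542 from limma), not called. T cells carry KLF2, and the PMA table holds the lymphocyte transcripts given above. Their part in the KLF2 values was not tested.

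KLF5, which promotes proliferation in epithelium and smooth muscle, rose with PMA from 821, 771 and 840.4 normalized counts to 2281, 2050.3 and 2061. With ConA it stood at 983, 1062 and 1149 against 617, 599 and 692 in the controls. Both treatments left the treated libraries above all controls. The log2 fold change was 1.39 with PMA (SE 0.057, adjusted p = 2.58e-09 from limma) and 0.74 with ConA (adjusted p = 1.71e-06 from limma), the latter under the fold threshold. The difference was 0.65 (95% interval 0.44 to 0.86, adjusted p = 2.78e-05 from limma), also under it.

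KLF6, a factor bound to GC boxes in many promoters, was the most abundant of the members. The PMA controls held 10839.6, 11191 and 10831 normalized counts and the PMA libraries 20373, 20048 and 19899. The ConA controls held 10446, 10872 and 10929.5 and the ConA libraries 12995, 14359.5 and 14647. The treated libraries lay above all controls, with a coefficient of variation of 1.20% with PMA and 6.30% with ConA. KLF6 had log2 fold changes of 0.88 with PMA (SE 0.035, adjusted p = 2.17e-09 from limma) and 0.38 with ConA (SE 0.056, adjusted p = 3.75e-05 from limma). Neither reached the fold threshold, nor did the difference of 0.50 (95% interval 0.36 to 0.64, adjusted p = 4.75e-06 from limma).

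KLF9, a factor induced by glucocorticoids, had almost equal values of change with the treatments. Its normalized counts were 3530.4, 3374 and 3928 in the PMA controls and 1809.8, 1888 and 1745 with PMA. They were 4195, 4163 and 4315 in the ConA controls and 2146, 2122 and 2212 with ConA. All treated libraries lay below all controls. The log2 fold changes of -0.99 with PMA (SE 0.058, adjusted p = 4.96e-08 from limma) and -0.97 with ConA (SE 0.051, adjusted p = 1.10e-09 from limma) ended just short of the fold threshold. Median centring of the libraries put them at -1.002 and -1.03, past it, and quantile normalization put the change with PMA at -1.10. With 1 library left out, the change with PMA ran from -1.04 to -0.93. It was called in 5 of 16 alternatives, and the change with ConA in 1 of 15. The difference was -0.02 with a 95% interval of -0.18 to 0.14 (adjusted p = 0.809 from limma), so a difference larger than 0.18 in either direction lies outside that interval.

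KLF10, the TGF-beta inducible early gene, gave small changes of opposite sign. The counts were 1588, 1543 and 1595 in the PMA controls and 1089, 1023 and 1064 with PMA. They were 2061, 2090.1 and 2021 in the ConA controls and 2194, 2351 and 2302 with ConA. The groups did not overlap in either table. On the log2 scale the change of KLF10 was -0.57 with PMA (adjusted p = 9.07e-07 from limma) and 0.15 with ConA (adjusted p = 0.0273 from limma). The difference of -0.72 (95% interval -0.86 to -0.58, adjusted p = 6.98e-08 from limma) was under the fold threshold.

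**Figure D3:**
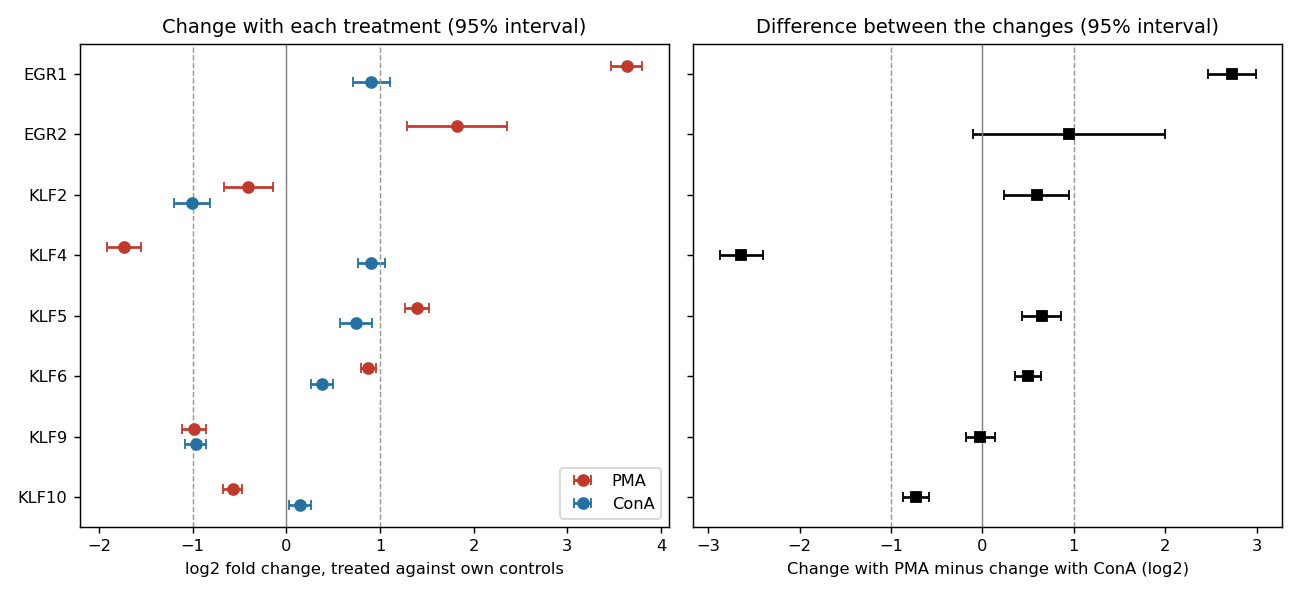
Log2 fold changes of the members with PMA (red) and with ConA (blue) against the controls of the same table, and, on the right, the difference of these changes (PMA less ConA); points are limma estimates on log2(normalized count + 1), bars are 95% intervals, and dashed lines mark the fold threshold of 1. EGR1 at 2.73 and KLF4 at -2.64 stand apart in the right panel, and KLF9 at -0.02 lies at 0.

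Over the members, 2 of 8 differences passed the thresholds, EGR1 on the PMA side, where 3.67% of 15030 genes were called, and KLF4 on the ConA side, where 6.89% were. Each treatment had its own experiment and controls. A difference between the treatments therefore cannot be told apart from one between the experiments. The median difference was 0.55 over the 8 members and -0.010 over all genes. Of the 8 members, 5 had a difference above 0 and 3 below. EGR2 (0.95) is among the 5, although it was under the minimum mean for a test with ConA. It entered here by its mean over all 12 libraries.

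**Figure D4:**
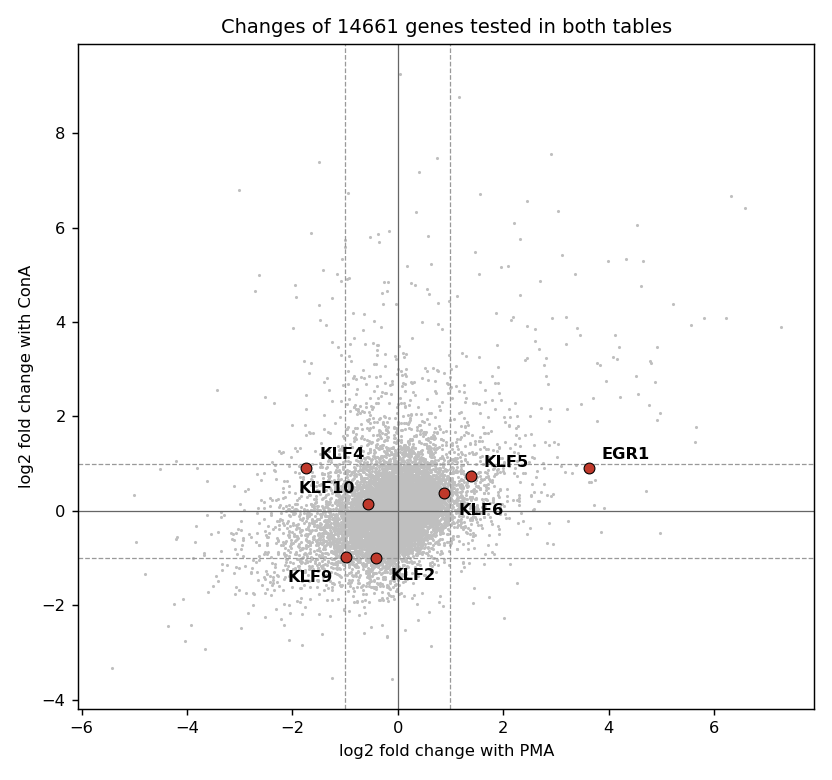
Log2 fold change with ConA against that with PMA for the 14661 genes tested in both tables (grey) and the 7 members among them (red, named), with dashed lines at the fold threshold of 1. EGR1 lies at 3.63 and 0.91, KLF4 at -1.73 and 0.91, and KLF9 and KLF2 lie on the lower edge at -0.97 and -1.004 with ConA.

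Counts were then divided by the length of the principal transcript in the GENCODE annotation, so that genes could be ranked within a group. In the PMA controls the order in normalized counts per kilobase was KLF6 (2353 ± 44.2, SD, n = 3), KLF2 (1137 ± 249), KLF9 (698 ± 55.2), KLF10 (509 ± 9.17), KLF4 (399.6 ± 40.4), KLF5 (227 ± 10.0), EGR1 (171 ± 20.6) and EGR2 (4.67 ± 1.03). No neighbours in that order overlapped. The ConA controls had the same order, from KLF6 at 2309 ± 56.8 to EGR2 at 2.04 ± 0.648. With PMA, EGR1 stood next to KLF6, at 2109 ± 78.4 against 4318 ± 52.0, and KLF4 dropped to 120 ± 9.53, above only EGR2. KLF9 at 350.5 ± 13.9 and KLF10 at 342 ± 10.8 overlapped there. With ConA, KLF2 at 777 ± 88.8 and KLF10 at 737 ± 25.9 overlapped behind KLF6 at 3007 ± 190.0, and EGR1 kept its place before EGR2, at 199.8 ± 3.62. These ranks rest on 1 transcript length per gene.

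Of 22 other EGR, KLF and SP genes, 14 were listed and tested in each table. With PMA 2 were called higher and 1 lower, with a list median of 0.19, where 4.03% and 4.61% of all genes were. With ConA 0 were called in either direction, with a median of 0.20, where 5.83% and 2.88% of all genes were. KLF15, a metabolic factor of liver and muscle, rose with PMA from 81.8 ± 5.91 normalized counts (SD, n = 3) to 344 ± 10.1, a log2 fold change of 2.06. It stood at 19.6 in the ConA controls and 17.8 with ConA. SP6 rose from 110 ± 11.9 to 230.2 ± 31.5 (1.05), a call that was lost without PMA control 1, PMA control 2, PMA 2 or PMA 3. KLF17 fell from 29.04 ± 4.43 to 4.80 ± 1.00 (-2.38), a call that rested on all libraries, since leaving out any of the 6 ended it. The difference between the changes was called for KLF15 (2.21) and KLF17 (-2.60) and not for SP6 (0.47, adjusted p = 0.0463 from limma).

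Of 8 cofactors of EGR and KLF proteins, all tested in both tables, 1 was called higher with PMA and 0 with ConA, with list medians of 0.15 and 0.16. The 1 called was NAB2, the EGR-induced corepressor of EGR proteins, which rose from 1597 ± 34.5 to 3511 ± 176 normalized counts (log2 fold change 1.14, adjusted p = 2.57e-09 from limma). With ConA NAB2 was at 1616 ± 130 in the controls and 1674 ± 127 in treated cells, and the difference of 1.08 was called. Of 15 upstream factors and kinases (SRF, ELK, MRTF and MEF2 factors and the ERK1/2 and ERK5 kinases), 1 was called higher with PMA and 1 with ConA, with medians of 0.12 and 0.05. For both lists, the share of all genes called higher was 4.03% with PMA and 5.83% with ConA. Single calls in lists this short say little about the lists. ELK3, an SRF partner, rose with PMA from 3672 ± 207 to 7654 ± 94.96 (1.06), and it was at 0.92, not called, after quantile normalization. MEF2C, a target of ERK5 that acts on KLF2, rose with ConA from 115 ± 9.08 to 269 ± 29.6 (1.21), a call that was lost without the variance trend (adjusted p = 0.000211 from limma). The differences of ELK3 (0.89) and MEF2C (-0.81) were not called.

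Of 24 other immediate early genes, all tested in both tables, 11 were called higher and 1 lower with PMA, and 3 higher and 0 lower with ConA. Among all genes tested, 4.03% were called higher and 4.61% lower with PMA, and 5.83% and 2.88% with ConA. This list and the target lists below were chosen with earlier results of these data known. Their counts against these shares are therefore a description and not an independent test. The list median was 0.82 with PMA and 0.27 with ConA. PTGS2, the inducible cyclooxygenase, rose with PMA from 813 ± 66.3 to 10007 ± 304 normalized counts (log2 fold change 3.62), close to EGR1 in size. GEM, a small GTPase (1.92), and FOSL1, an AP-1 subunit (1.81), rose as well, and NR4A2, an orphan nuclear receptor, fell by 3.29 from 813 ± 37.3 to 83.2 ± 16.1. The 3 called with ConA were FOS (1.53) and ATF3 (1.07), which encode bZIP factors, and ARC (1.52), a neuronal immediate early gene whose call was lost without ConA library 3 or ConA control 6. JUN had -0.93 with ConA and 0.34 with PMA, neither of them called, although -1.03 without ConA library 1 was. The difference between the changes was called for PTGS2 (3.01), GEM (2.29), NR4A2 (-3.21), ATF3 (-1.14) and JUN (1.27), and not for FOSL1 (0.92), FOS (-0.72) or ARC (-0.70).

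**Figure D5:**
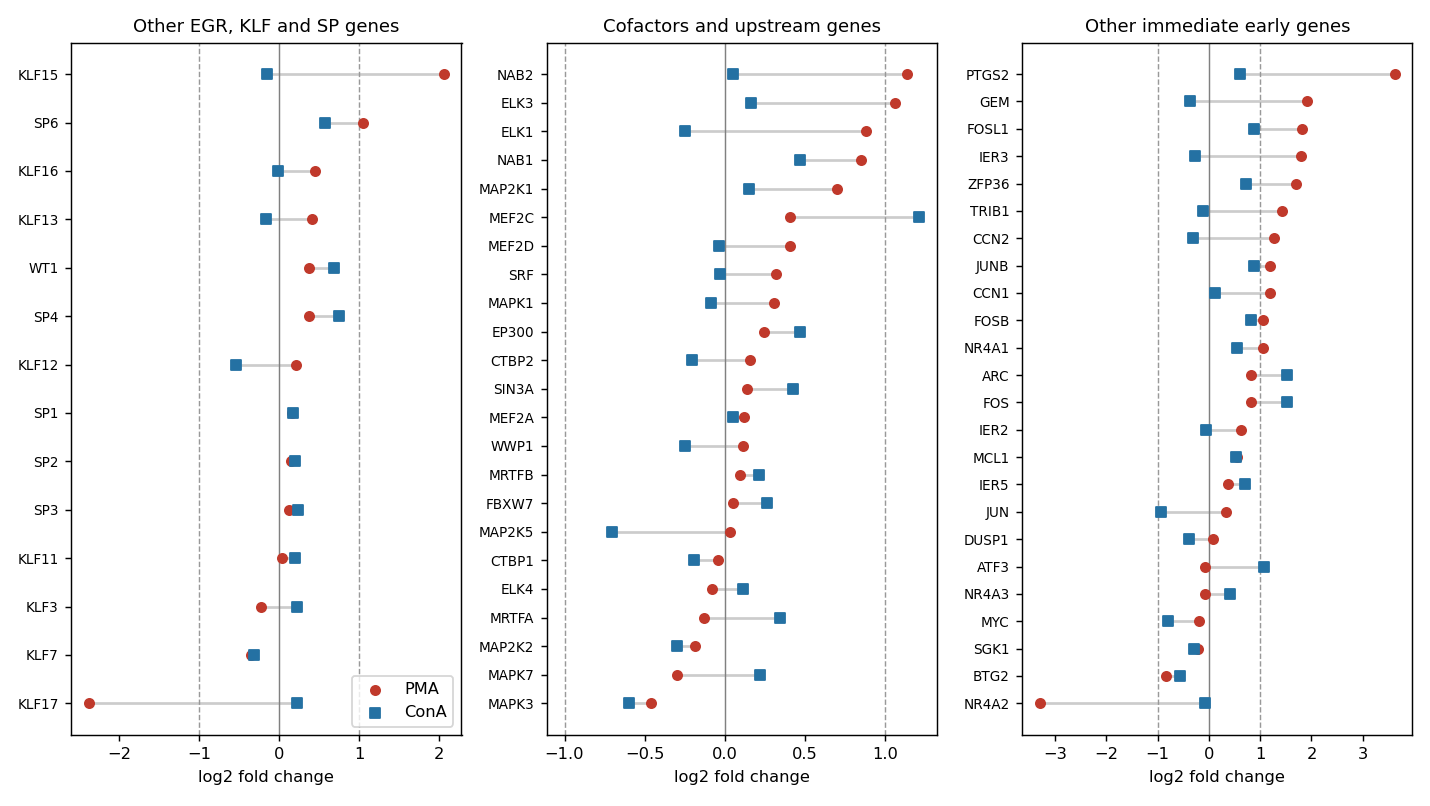
Log2 fold changes with PMA (red circles) and with ConA (blue squares) of the other EGR, KLF and SP genes, of cofactors with upstream genes, and of other immediate early genes, 1 row per gene, with dashed lines at the fold threshold of 1 and a different horizontal scale in each panel. KLF15 at 2.06 and KLF17 at -2.38 are the ends of the first panel with PMA, NAB2 at 1.14 and ELK3 at 1.06 are the highest red points of the second, and PTGS2 at 3.62 and NR4A2 at -3.29 are the ends of the third.

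Genes that textbooks give as EGR1 targets moved unevenly. Of 14 tested with PMA, 4 were called higher and 1 lower (list median 0.61), where 4.03% and 4.61% of all genes were. Of 13 tested with ConA, 3 were called higher and 0 lower (median 0.05), where 5.83% and 2.88% of all genes were. ICAM1, an adhesion molecule for leukocytes, rose with PMA from 642 ± 43.9 to 12939 ± 304 normalized counts (log2 fold change 4.33) and with ConA from 435 ± 7.99 to 17582 ± 1480.0 (5.33). HPSE, encoding heparanase, rose with both (2.52 and 2.00), EGFR with PMA (1.37, against -0.18 with ConA) and FGF2 with ConA (2.49, against 0.73 with PMA). PTGES, a prostaglandin E synthase, fell by 2.66 with PMA and had 0.78, not called, with ConA. NAB2 was the other gene called higher with PMA. The difference was called for PTGES (-3.45), FGF2 (-1.77) and EGFR (1.54), and not for ICAM1 (-0.997, which passed in 6 alternatives) or HPSE (0.52).

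Of textbook KLF targets, 0 of 12 tested with PMA were called higher and 1 lower (median 0.07). With ConA 0 of 13 were called in either direction (median -0.31). The shares over all genes tested were 4.03% higher and 4.61% lower with PMA, and 5.83% and 2.88% with ConA. Lists this short, at such shares, say little about KLF targets as a set. S1PR1, a KLF2 target in lymphocytes and endothelium, fell with PMA from 278 ± 17.2 to 129 ± 11.6 normalized counts (log2 fold change -1.11), while quantile normalization left it at -0.95, not called. The other large changes with PMA were those of THBD, encoding thrombomodulin, which was larger still but missed the p threshold (1.15, adjusted p = 0.000119 from limma), CCND1, encoding cyclin D1 (0.92), and PLAU, encoding urokinase (-0.58), none called. The largest with ConA were COL1A1 (-0.66), TGFBR1 (-0.62), CDH1 (0.56, adjusted p = 0.405 from limma, at 10.9 ± 7.81 in the controls) and NOS3, encoding endothelial nitric oxide synthase (-0.54), none called. Of these genes, none of those tested for the difference was called, with values from -0.80 for S1PR1 to 1.69 for THBD, and CDH1 was not listed in the PMA table.

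For each member, the 3 genes with the most similar values over the 12 libraries were found among the 14661 genes tested in both tables, by the root mean square difference of log2 values centred on the controls of the same table. Similarity here is a description of 2 treatments and carries no test. For EGR1 they were MYCT1 (0.183), IL1B, encoding interleukin-1 beta (0.194), and INHBA, encoding the beta A chain of activin (0.215). For KLF4 they were EFEMP1 (0.152), TNFRSF11B, encoding osteoprotegerin (0.167), and LIPH (0.172), whose log2 fold changes ran from -1.63 to -1.59 with PMA and from 0.74 to 1.00 with ConA. EGR2 was nearest to CCDC30 (0.242), SPHK1 (0.303) and OAF (0.320), and its distances were the largest, as were its replicate errors. KLF2 was nearest to RTN2 (0.127), NUDT3 (0.140) and PIK3R2 (0.141). KLF5 was nearest to DENND5A (0.0774), ZNF618 (0.0802) and ROBO4 (0.0900). These 3 had changes of 1.31 to 1.47 with PMA and 0.68 to 0.78 with ConA, on both sides of those of KLF5. KLF6 was nearest to IVNS1ABP (0.0515), MPZL1 (0.0563) and HCLS1 (0.0592). KLF9 was nearest to LRIG1 (0.0629), SSBP2 (0.0782) and STON1 (0.0853), and KLF10 to CHST15 (0.0539), HEXIM1 (0.0571) and KIAA0319L (0.0605).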

How the data were processed

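Poly(A) RNA of 12 libraries was sequenced by a service company. The signal values deposited by the authors hold, for each gene symbol, normalized counts, in 1 table per experiment, scaled apart and not divided by length. The submitters' processing notes name Partek, Bowtie2, STAR and DESeq2 and the builds hg19 and mm10, without roles or versions, and whether strand was used in counting is not given in the sources used here. Values between 5 and 60 became whole, within 0.05, for 81.8% to 84.2% under the best factor per library, so reads were not recovered and no count test was run. Each table was fitted with limma 3.58.1 in R 4.3.3 on log2(normalized count + 1), with a variance trend, for genes with a mean of at least 10. Folds are on that scale and understate changes of low genes. The difference was fitted over 12 libraries with 4 group means. Python 3.11.15 with pandas 2.3.3, numpy 2.4.6 and matplotlib 3.10.9 served for tables and plots.

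The members and lists were chosen with earlier results of these data known. Named were the 9 members, called genes of the family, cofactor and upstream lists, the 4 largest changes per treatment of the other 3 lists, and the 3 nearest genes per member. Alternatives were pseudocounts of 0.1 and 10, a mean of at least 50 or no minimum, median centring, quantile normalization, no variance trend, an adjusted p of at most 0.05, a replicate block, 1 fit of all 12 libraries, and leaving out each library. The test was checked on simulated data, in which all changed genes lay past the fold threshold and the lowest genes were left out. That check does not cover changes near the threshold or low genes such as EGR2. Marker lists for mesenchymal, epithelial, endothelial, lymphocyte, myeloid and erythroid cells were written from general knowledge. Some genes of these lists are not reported here and were left out of their counts.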

Additional observations from a re-analysis of the deposited data

Results flagged for a closer look

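The changes with the treatments differed, by the limma test of the difference itself (change with PMA minus change with ConA, log2), for 2 members, EGR1 (2.73) and KLF4 (-2.64). The EGR1 difference was 2.62 to 2.80 and the KLF4 difference -2.69 to -2.55 over all alternatives, and all of them passed the thresholds. Of the other genes named, the difference passed for KLF15 (2.21), KLF17 (-2.60), NAB2 (1.08), PTGS2 (3.01), NR4A2 (-3.21), GEM (2.29), ATF3 (-1.14), JUN (1.27), PTGES (-3.45), EGFR (1.54) and FGF2 (-1.77). As each treatment had its own experiment, these differences cannot be told apart from differences between the experiments. Groups of 3 libraries are too small for a test of single outlying libraries.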

How the results depend on the processing

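Of 391 values of single members under the alternatives, 369 kept their direction and their side of the thresholds, and of 983 values of the other named genes, 947 did. Without the variance trend 867 genes were called with PMA in place of 1310 and 662 with ConA in place of 1318, and the cause was not tested. Members called with PMA numbered 3 to 5 over the other settings and 3 to 4 with 1 library left out (4 as reported). Members called with ConA numbered 2 with median centring, 0 without the variance trend and 0 to 1 with 1 library left out (1 as reported). Without ConA control 6 the member called was EGR1 in place of KLF2. With the adjusted p allowed up to 0.05, 1933 genes were called with PMA, 1750 with ConA and 2321 for the difference. EGR2 with PMA was not called without the variance trend (adjusted p = 0.000326) or in 1 fit of all 12 libraries (0.000232). KLF2 with ConA was not called without the trend (0.000778), nor were ARC and MEF2C with ConA or KLF17, S1PR1 and SP6 with PMA. The difference of KLF9 changed sign with median centring (0.0265) and ran from -0.0705 to 0.0391 with 1 library left out, and CDH1 with ConA ran from -0.25 (without ConA control 6) to 1.03. With no minimum, EGR2 with ConA was at 0.87 (adjusted p = 0.112 from limma). PMA and its controls share replicate numbers, but the deviations of libraries with the same number correlated at -0.06, 0.10 and 0.10, so the numbers were not taken as pairs. With the replicate block EGR2 with PMA was at an adjusted p of 0.000165 from limma and lost its call, as did KLF17 (0.000205), and 1264 genes were called. Levels near 10 normalized counts, as for EGR2 and KLF17, limit what 3 libraries can show.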
